A study of Mus musculus with 7 samples.

Results

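The genes described here belong to the families of E2 ubiquitin-conjugating enzymes and of deubiquitinating enzymes, as expressed in mouse oocytes with and without the histone methyltransferase gene Setd1b. They were chosen by symbol from the oocyte transcript table. A transcript was a member where the gene that the table gives lay on the strand of the transcript and its symbol began with Ube2, with Usp and a digit, with Uch or with Otu, and 1 gene was set aside by the selection. Where several transcripts carried the same symbol, the transcript with the highest mean over the 7 libraries was kept. This gave 83 genes from 86 transcripts, out of 15476 genes that the table names on the strand of the transcript and 33437 transcripts in all. They were 27 genes with E2 symbols, 43 ubiquitin-specific proteases (USP), 10 genes with ovarian tumour domain symbols (OTU) and 3 genes with ubiquitin C-terminal hydrolase symbols (UCH). A symbol is not an activity, and several members are not active enzymes of these families. Uchl1os is a noncoding antisense RNA, Usp6nl encodes a GTPase-activating protein, Usp39 encodes a splicing factor without protease activity, and Ube2cbp encodes a ubiquitin ligase. Ube2v2 encodes an E2 variant and Otulinl an inactive relative of the OTU proteases.

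RNA was measured by single-cell RNA-seq of germinal vesicle (GV) oocytes, which are grown oocytes still arrested in meiotic prophase, from C57BL6 (C57BL/6OlaHsd in the methods) females aged 21 days. All females were homozygous for a floxed Setd1b allele per the labels. Of the 7 libraries, 4 came from females positive for Gdf9-Cre (Setd1b cKO), a recombinase that acts in oocytes from early folliculogenesis onwards, and 3 came from females negative for it (Setd1b WT), where the study also counts as WT heterozygous females that carry Cre. Each library held 1 oocyte, and the labels do not tie oocytes to mothers, so that p-values measure the spread between these oocytes. Values are in RPM, that is, read counts on a common library size, which give the share of a library's reads and not molecules per oocyte.

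Ubiquitin is passed from an E1 activating enzyme to an E2 conjugating enzyme, which together with an E3 ligase attaches it to a target protein. The E2 often decides how a chain is linked, and with it whether the target goes to the proteasome or takes part in signalling or DNA repair. Deubiquitinating enzymes cleave ubiquitin from targets and recycle it. Related E2 enzymes carry ubiquitin-like proteins such as NEDD8 and ISG15. Oocytes store transcripts and proteins during growth and depend on regulated protein degradation when meiosis resumes, through the anaphase-promoting complex and its E2 enzymes.

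The libraries held between 8582493 and 12972366 mapped reads, so that 1 read was worth 0.0771 to 0.117 RPM and a count of 0 reads allowed up to 0.231 to 0.350 RPM (3 reads), for counting error only. Setd1b itself was measured at 8.31, 16.7, 12.8 and 2.68 RPM in cKO replicates 1 to 4 and at 17.7, 16.3 and 8.61 RPM in WT replicates 1 to 3 (log2 fold change -0.61, SE 0.49, limma adjusted p = 0.533). The Setd1b transcript was matched by its span and is listed in the table under a neighbouring gene. It overlaps a transcript on the opposite strand with a mean of 10.5 RPM, whose reads cannot be told apart where the strand was not used. The value also covers the whole transcript and not the excised segment alone, so that it does not check the labels. All 11 oocyte markers found in the table were present, with means from 96.0 to 8521 RPM. Their summed level was 22017 to 23906 RPM in the cKO libraries and 26274 to 28428 RPM in the WT libraries, and 1 of them, the transcript listed as Mos, a kinase of meiotic arrest, was lower in cKO (191 ± 19.0 against 486 ± 73.3 RPM, SD; log2 fold change -1.34, limma adjusted p = 0.00581). Of 14 granulosa cell markers 8 had a mean under 1 RPM and none was at 0 in all libraries, and their summed level was 75.6 to 92.2 RPM in the cKO libraries and 51.3 to 69.0 RPM in the WT libraries. Of 7 blood and stroma markers in the table Hba-a1 and Hbb-bs had no read in any library, the summed level was 14.1 to 23.5 RPM in cKO and 16.3 to 21.5 RPM in WT, and Dcn was higher in cKO (6.47 ± 0.920 against 1.87 ± 1.12 RPM, SD). Reads outside the transcripts made up 14.6% ± 1.30 of the cKO libraries (SD, n = 4) and 9.73% ± 0.165 of the WT libraries (SD, n = 3; two-sided exact permutation test p = 0.0286 on the absolute difference, the smallest that 3 against 4 libraries allow, and 0.0571 when the p of one tail is doubled). The first principal component of all genes (39.6% of the variance) separated the genotypes, and the second (31.0%) placed cKO replicate 4 and WT replicate 3 apart from the other 5 libraries. The part of the markers, of the reads outside transcripts and of those 2 libraries in the differences described below was not tested, and values without the 2 libraries are given where they change which members passed.

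Annotated promoters are printed for Ube2e2 and for 2 members that had reads in cKO oocytes alone. RefSeq (GRCm38.p6) gave a window of 300 bases, from 250 bases before to 50 bases after the start site, for 64 of the 83 members. For 39 of them the annotated start lay within 250 bases of the 5′ end of the oocyte transcript. These 39 windows held a median of 28 CG dinucleotides (quartiles 19 and 35.5), against a median of 7 over all 32851 windows. The members' windows were those nearest to the 5′ end of an oocyte transcript, and the 32851 windows were not selected in this way. The 2 medians therefore do not show a trait of these families. Ube2e2 had the largest log2 fold change among the tested members with reads in both genotypes. Usp17lc and Usp17ld are related genes without a single read in the WT oocytes. The windows of these genes differed widely in CG. They are written 5′ to 3′ on the strand of the gene, with every CG in capitals.
Ube2e2, chr14:18893722-18894021, minus strand: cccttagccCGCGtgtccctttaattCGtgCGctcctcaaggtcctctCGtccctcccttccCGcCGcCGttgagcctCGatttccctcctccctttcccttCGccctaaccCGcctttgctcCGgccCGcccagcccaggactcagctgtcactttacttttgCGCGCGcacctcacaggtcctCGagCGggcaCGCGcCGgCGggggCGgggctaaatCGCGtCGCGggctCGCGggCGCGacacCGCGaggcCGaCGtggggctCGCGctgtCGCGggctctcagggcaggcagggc
Usp17lc, chr7:103416446-103416745, plus strand: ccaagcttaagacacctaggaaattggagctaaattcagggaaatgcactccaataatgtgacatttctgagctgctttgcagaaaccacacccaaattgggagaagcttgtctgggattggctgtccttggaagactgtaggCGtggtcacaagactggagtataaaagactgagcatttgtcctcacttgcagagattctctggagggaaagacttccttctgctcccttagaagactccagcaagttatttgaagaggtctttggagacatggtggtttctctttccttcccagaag
Usp17ld, chr7:103252456-103252755, minus strand: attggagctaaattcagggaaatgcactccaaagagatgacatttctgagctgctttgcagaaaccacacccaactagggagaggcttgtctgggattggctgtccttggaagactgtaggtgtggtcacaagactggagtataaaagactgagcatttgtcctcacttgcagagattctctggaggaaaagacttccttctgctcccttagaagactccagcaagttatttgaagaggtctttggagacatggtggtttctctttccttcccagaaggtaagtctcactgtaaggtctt

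The Ube2e2 window held 39 CG, a number that 4.45% of all windows reach. The Usp17lc window held 1 CG and the Usp17ld window 0, where 14.1% of all windows hold at most 1 and 5.43% hold 0, and these were the 2 members of the 39 with at most 1 CG. The Usp17lc and Usp17ld windows were alike in 269 of 322 aligned positions (83.5%). Both held the letters TATAAA on the gene strand, starting 88 bases before the annotated start in Usp17lc and 110 bases before it in Usp17ld, and the Ube2e2 window did not hold them on either strand. TATAAA, searched after these sequences had been read, occurred on the gene strand in 2 of the 39 windows of members and in 8.32% of all windows, and on either strand in 3 of the 39 and in 13.6%. The Ube2f transcript began 3813 bases from the nearest RefSeq start of that gene, and its window was therefore not used.

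The comparison of Setd1b cKO with Setd1b WT asks which transcripts change when the oocyte loses this methyltransferase. Of the 83 members 77 reached 1 RPM in at least 3 libraries and were tested together with all other transcripts, 18179 in total. The threshold was a Benjamini-Hochberg adjusted p under 0.05 in limma and a change over 2-fold on the log2(RPM + 1) scale. Ube2e2, Ube2f and Uchl1os were higher in Setd1b cKO, and no member was lower. These were 3 of 77 members (3.90%), where 5.71% of all transcripts tested passed in either direction, 3.76% of them higher and 1.95% lower. At an unadjusted p under 0.05, 9 members were higher and 4 lower (16.9% together, against 21.7% of all transcripts tested, 14.2% higher and 7.52% lower). Among the 9 were Usp17lc and Usp50, which were tested only through their cKO libraries. With voom on the recovered reads 2 of 77 members were higher and 0 lower, where 443 of 18179 transcripts were higher and 328 lower. The members' shares were near those of all transcripts. Counts given below for single classes or lists are to be read beside these shares over all transcripts.

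No overlap between cKO and WT oocytes was found for 15 of the 77 members (19.5%), with the cKO oocytes above for 12 and below for 3. Of all transcripts tested 20.3% did not overlap (13.2% above and 7.14% below). Among the 12 were Usp17lc and Usp50, which were tested only through their cKO libraries. The log2 fold change of 61 members lay within 0.5 of 0. Its median was 0.07 over the members, with 47 above 0 and 30 below, and 0.12 over all transcripts tested. By class the median was 0.03 for the 26 E2 genes tested, 0.04 for 40 USP genes, 0.24 for 8 OTU genes and 0.74 for 3 UCH genes. The median over all transcripts moved with the scaling of the libraries, from 0.12 to -0.03 under centring of the libraries on their median gene, and the members' median moved with it to -0.08.

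**Figure D1:**
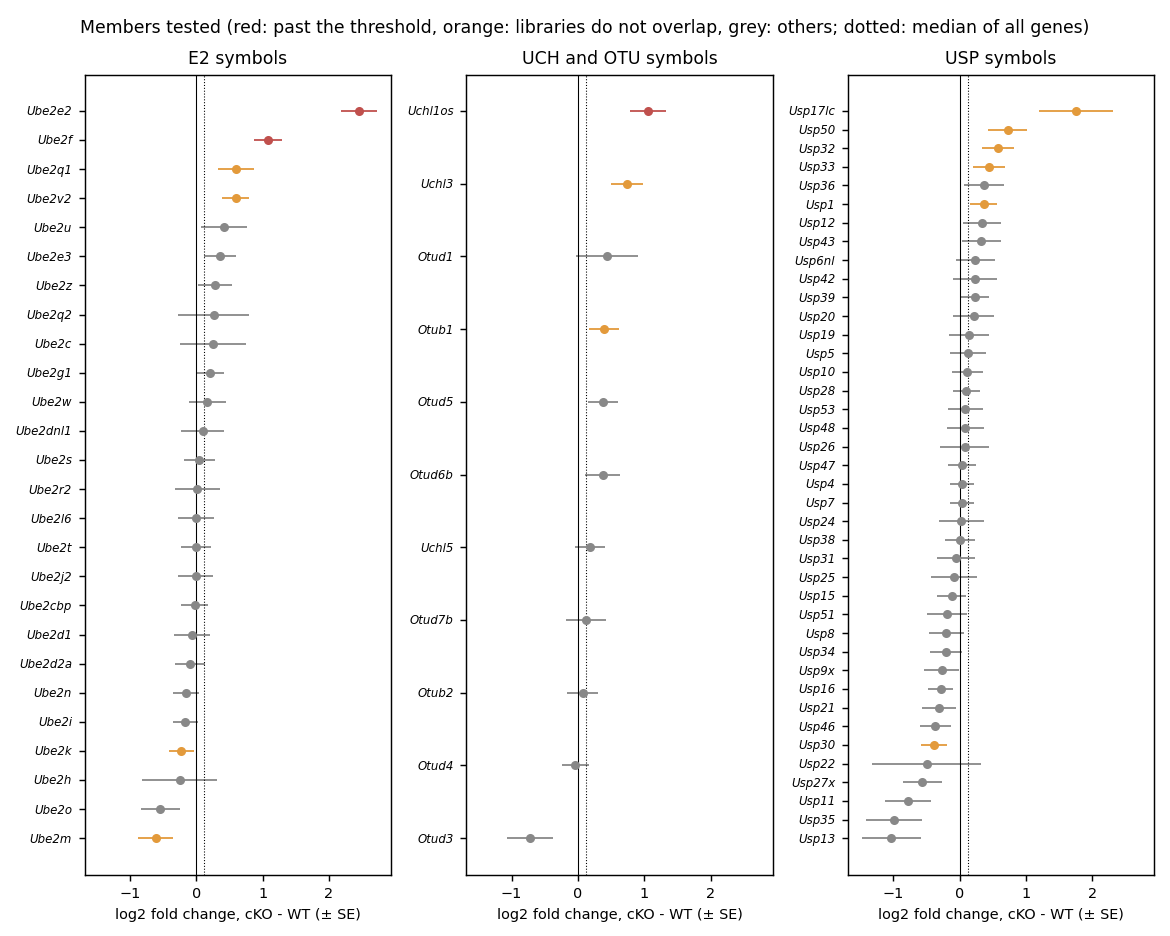
Log2 fold change of the 77 members tested (Setd1b cKO minus WT on the log2(RPM + 1) scale, horizontal axis), 1 point per gene with its SE as a bar, for E2 symbols, UCH and OTU symbols, and USP symbols. On this scale, which understates the change of low transcripts such as Usp17lc, Ube2e2 at 2.45 stands beyond every other member. In all, 61 members lie within 0.5 of 0, and the 3 genes past the threshold are all on the right.

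The 6 members that were not tested did not reach 1 RPM in 3 libraries. Ube2ql1 had no read in any library. Otud7a had 1 read in each of 2 libraries, and Usp44, a histone H2B deubiquitinase known from the mitotic checkpoint, reached at most 0.247 RPM in a transcript that matches only 0.075 of the annotated span. Otulinl ranged from 0.187 to 1.46 RPM, with the genotypes overlapping. The remaining 2, Usp17ld and Usp17le, are described with Usp17lc below.

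Levels between genes can be compared per length of annotated exons. Of the 75 members whose transcript matched the annotated span by at least 0.5, Ube2t, the E2 of the Fanconi anaemia pathway, had the highest level in WT oocytes at 516 RPM per kb. It was followed by Uchl3 with 197, Otub1 with 154, Ube2w with 116 and Ube2h with 65.1 RPM per kb. In RPM per transcript the highest means belonged to Ube2t, Ube2w, Otub1, Usp15, Ube2h and Usp9x. In all, 17 members had a mean of at least 100 RPM, 51 of at least 10 RPM and 7 under 1 RPM. Ube2t had 561, 511, 527 and 680 RPM in cKO replicates 1 to 4 and 496, 526 and 704 RPM in WT replicates 1 to 3, with the genotypes fully interleaved (log2 fold change -0.01, SE 0.22, limma adjusted p = 0.993).

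**Figure D2:**
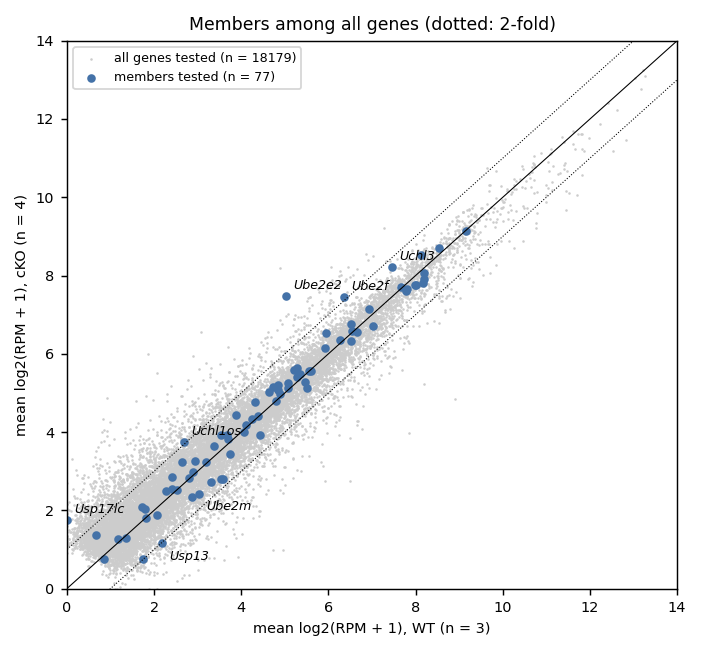
Mean log2(RPM + 1) in WT oocytes (n = 3, horizontal axis) against cKO oocytes (n = 4, vertical axis) for 18179 transcripts (grey) and 77 members (blue), with the line of equality and dotted lines at a 2-fold change. Most members follow the line over the whole range of levels, and Ube2e2 lies far above it.

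Among E2 enzymes that start or build many kinds of chain, Ube2e2 stood alone. UBE2E2 is a class III E2 with a long N-terminal extension. The transcript lies at chr14:18569400-18893776 on the minus strand (GRCm38), and no other transcript of the table overlaps it. It was measured at 201, 115, 182 and 231 RPM in cKO replicates 1 to 4 and at 26.3, 29.4 and 40.0 RPM in WT replicates 1 to 3. The lowest cKO oocyte was far above the highest WT oocyte. The difference was 2.45 on the log2 scale (SE 0.27, limma adjusted p = 0.00233), a 5.48-fold higher level. It stayed past the threshold in all 22 alternatives, between 2.298 and 2.66.

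In the values measured, the closest relatives of Ube2e2 did not show a difference of this size. Ube2e3, chosen after its values were seen, had 38.2, 38.0, 39.8 and 28.8 RPM in cKO and 31.9, 31.8 and 21.2 RPM in WT, so that cKO replicate 4 fell among the WT oocytes (log2 fold change 0.36, SE 0.24, limma adjusted p = 0.433). Ube2e1, which the table lists under a neighbouring gene and which is therefore no member, had means of 43.1 and 37.5 RPM (log2 fold change 0.18, limma adjusted p = 0.754). Its transcript overlaps one on the opposite strand with a mean of 280 RPM, whose reads cannot be told apart where the strand was not used. The Ube2e1 value is therefore uncertain. The difference between these genes and Ube2e2 was not tested. Ube2w, which adds ubiquitin to the N-terminus of proteins, had 468, 546, 427 and 272 RPM in cKO and 424, 442 and 269 RPM in WT. Its low values in both genotypes were those of cKO replicate 4 and WT replicate 3 (log2 fold change 0.17, SE 0.28, limma adjusted p = 0.797). Ube2d1 and Ube2d2a, of the promiscuous UBE2D class, had log2 fold changes within 0.5 of 0.

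Among the E2 enzymes of ubiquitin-like proteins, Ube2f was higher in cKO. UBE2F is one of the E2 enzymes for NEDD8, the modifier that activates cullin-RING ligases, and works with the cullin CUL5. Its transcript, at chr1:91246491-91289315 on the plus strand, overlaps no other transcript of the table. It had 205, 192, 160 and 143 RPM in cKO and 92.5, 75.2 and 77.1 RPM in WT, without overlap. The difference on the log2 scale was 1.08 (SE 0.21, limma adjusted p = 0.0150). The call was lost in 4 of 22 alternatives, among them centring on the median gene (0.93, limma adjusted p = 0.0302), without cKO replicate 1 (1.002, limma adjusted p = 0.0521) and without WT replicate 2 (1.03, limma adjusted p = 0.0821).

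Ube2m, the other NEDD8 E2, which serves most cullins, lay on the other side of 0 and did not pass. It had 4.85, 3.29, 4.96 and 4.54 RPM in cKO and 6.88, 8.33 and 6.55 RPM in WT, so that all 4 cKO oocytes were below the WT oocytes at a low level (log2 fold change -0.61, SE 0.26, limma adjusted p = 0.202). Ube2f and Ube2m were set side by side after their values were seen, and the difference between them was not tested. The E2 for ISG15, Ube2l6, had a mean of 2.50 RPM in cKO and 2.51 RPM in WT.

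**Figure D3:**
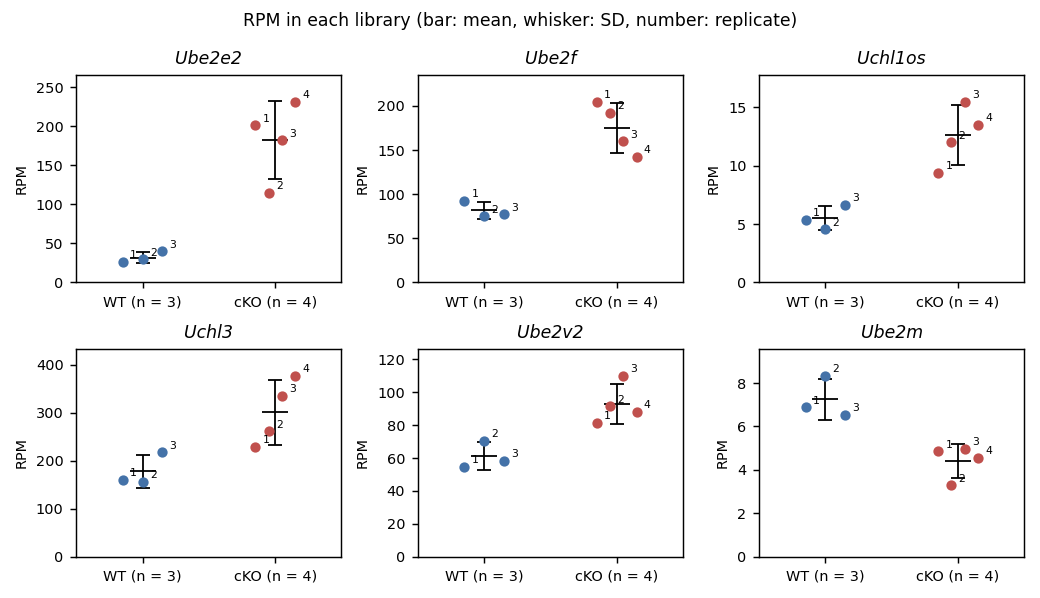
RPM of 6 members in each library (points, numbered by replicate), with the mean and SD of the WT (n = 3) and cKO (n = 4) oocytes. Ube2e2, Ube2f, Uchl1os, Uchl3 and Ube2v2 have every cKO oocyte above every WT oocyte, and Ube2m has every cKO oocyte below; the first 3 genes passed the threshold and the other 3 did not.

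Of the 3 tested members grouped under lysine-63 chains and DNA damage tolerance none passed (1 higher at an unadjusted p under 0.05, voom 0). Ube2n, which builds lysine-63 chains, had 206, 205, 221 and 170 RPM in cKO and 223, 245 and 203 RPM in WT (log2 fold change -0.16, SE 0.20, limma adjusted p = 0.705). Its partner Ube2v2, an E2 variant without a catalytic cysteine, had 81.6, 91.5, 110 and 88.2 RPM in cKO and 54.7, 70.6 and 58.4 RPM in WT. These did not overlap, but the difference did not pass (log2 fold change 0.59, SE 0.21, limma adjusted p = 0.120). Ube2v1, the alternative partner, which is read from a transcript listed under a neighbouring gene and is no member, had 77.8, 70.7, 55.8 and 39.8 RPM in cKO and 36.8, 39.8 and 37.3 RPM in WT, with cKO replicate 4 barely above the WT oocytes (log2 fold change 0.63, SE 0.25, limma adjusted p = 0.176).

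The 4 E2 enzymes of lysine-48 chains and of degradation at the endoplasmic reticulum had log2 fold changes between -0.23 and 0.21, and none passed. At an unadjusted p under 0.05 and with voom the number was also 0. Ube2k, which builds lysine-48 chains, had 228, 233, 206 and 195 RPM in cKO and 235, 253 and 269 RPM in WT, which did not overlap by a narrow margin (log2 fold change -0.23, SE 0.19, limma adjusted p = 0.545). Ube2g1 had means of 142 and 123 RPM with overlapping oocytes.

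Both E2 enzymes of the anaphase-promoting complex had overlapping genotypes. Ube2c, which starts the chains on cyclin B and securin, had 142, 141, 168 and 40.0 RPM in cKO and 118, 127 and 49.5 RPM in WT. The low oocyte of each genotype was again cKO replicate 4 and WT replicate 3 (log2 fold change 0.25, SE 0.49, limma adjusted p = 0.826). The table's Ube2c and Ube2s transcripts each covered under 0.5 of the annotated span. Ube2s, which elongates the chains, had 18.5, 25.1, 16.4 and 22.7 RPM in cKO and 20.9, 20.04 and 18.4 RPM in WT (log2 fold change 0.04, SE 0.23, limma adjusted p = 0.943).

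Of the other genes with E2 symbols 7 were tested and none passed. Ube2q1, whose product has an extended N-terminal region, had 7.03, 6.92, 10.9 and 9.32 RPM in cKO and 5.43, 4.47 and 5.80 RPM in WT, without overlap (log2 fold change 0.60, SE 0.27, limma adjusted p = 0.225). Ube2u ranged from 25.4 to 58.7 RPM in cKO and from 19.7 to 40.8 RPM in WT, where the highest oocyte of each genotype was cKO replicate 4 and WT replicate 3 (log2 fold change 0.42, SE 0.34, limma adjusted p = 0.540).

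Several members followed the axis that sets cKO replicate 4 and WT replicate 3 apart, in both genotypes. Ube2h, an E2 known from the degradation of gluconeogenic enzymes in its yeast counterpart and from erythroid maturation, had 266, 408, 231 and 84.6 RPM in cKO and 463, 340 and 106 RPM in WT. Usp22, the deubiquitinase of the SAGA complex that acts on histone H2B, had 13.4, 38.4, 28.8 and 2.10 RPM in cKO and 37.5, 33.0 and 6.46 RPM in WT. The Ube2q2 transcript overlaps one on the opposite strand with a mean of 49.0 RPM, whose reads cannot be told apart where the strand was not used. Ube2q2 had 13.0, 31.7, 20.2 and 4.54 RPM in cKO and 15.9, 15.3 and 6.46 RPM in WT. Their log2 fold changes were -0.25 (SE 0.56), -0.50 (SE 0.82) and 0.26 (SE 0.54), with limma adjusted p-values of 0.855, 0.790 and 0.839, and each changed sign when some library was left out. With both of these libraries left out, 4 members were higher and 0 lower, the addition being Usp17lc, whose WT libraries held no read and which was tested only through its cKO libraries, and 1015 transcripts were higher and 522 lower.

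**Figure D4:**
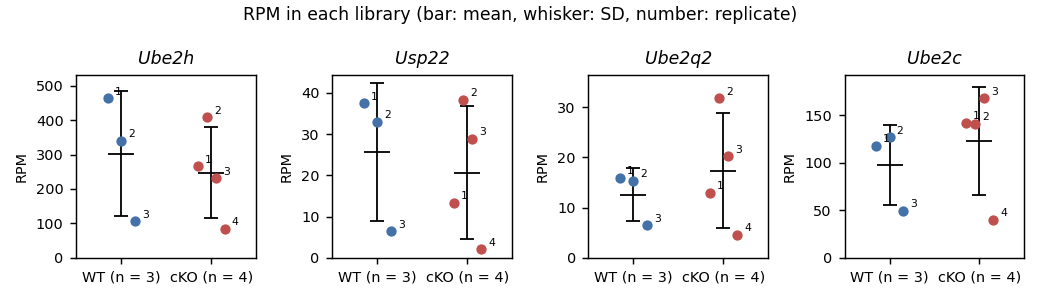
RPM of Ube2h, Usp22, Ube2q2 and Ube2c in each library (points, numbered by replicate), with the mean and SD of the WT (n = 3) and cKO (n = 4) oocytes. In all 4 genes the lowest oocyte of each genotype is cKO replicate 4 and WT replicate 3, and the genotypes overlap.

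Of the UCH hydrolases, Uchl3 had the largest difference that did not pass. UCHL3 cleaves ubiquitin and NEDD8 from short extensions and precursors. It had 230, 261, 336 and 377 RPM in cKO and 160, 156 and 218 RPM in WT, where the lowest cKO oocyte was just above the highest WT oocyte. The difference on the log2 scale was 0.74 (SE 0.24, limma adjusted p = 0.0970). Without cKO replicate 4 and WT replicate 3 it was 0.78 (limma adjusted p = 0.0216). It ranged from 0.59 to 0.90 over the 22 alternatives and was below the 2-fold limit in all of them. Uchl5, a hydrolase of the proteasome and of the INO80 remodeller, had 31.5, 33.5, 50.7 and 34.6 RPM in cKO and 30.4, 36.2 and 31.1 RPM in WT (log2 fold change 0.18, SE 0.23, limma adjusted p = 0.726).

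Uchl1os, the antisense RNA of Uchl1, was higher in cKO at a low level. It had 9.40, 12.0, 15.5 and 13.5 RPM in cKO and 5.34, 4.55 and 6.64 RPM in WT, without overlap (log2 fold change 1.06, SE 0.27, limma adjusted p = 0.0427). The call was lost in 13 of 22 alternatives, among them every fit that left out 1 library, with adjusted p-values from 0.0536 to 0.169. Its transcript, chr5:66655792-66676033 on the minus strand, matched 0.405 of the annotated span and shared 79 bases with the transcript of Uchl1 on the plus strand, which had a mean of 1202 RPM. Since no source states that reads were counted by strand, reads in the shared bases could belong to either. Uchl1, the abundant hydrolase of neurons and oocytes, is listed in the table under Uchl1os and is no member. It had 1188, 1114, 1139 and 1315 RPM in cKO and 1200, 1192 and 1270 RPM in WT (log2 fold change -0.04, SE 0.20, limma adjusted p = 0.940). The Uchl1os difference thus stood beside no detectable difference in Uchl1.

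Of the OTU genes, 8 were tested and none passed, and 0 had an unadjusted p under 0.05 or passed with voom. Otub1, which binds and inhibits E2 enzymes such as UBE2N besides cleaving lysine-48 chains, had 389, 313, 308 and 481 RPM in cKO and 290, 264 and 285 RPM in WT. These did not overlap (log2 fold change 0.39, SE 0.22, limma adjusted p = 0.342). Otud4 was even, with 44.9 to 47.3 RPM in cKO and 40.7 to 56.6 RPM in WT (log2 fold change -0.04, SE 0.20, limma adjusted p = 0.943). Otud3, named after its values were seen, had 3.96, 4.04, 7.58 and 10.3 RPM in cKO and 8.10, 10.3 and 14.1 RPM in WT, with overlap (log2 fold change -0.72, SE 0.35, limma adjusted p = 0.267).

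Of 40 USP genes tested none passed, while 3 were higher and 3 lower at an unadjusted p under 0.05 (voom 0 in both directions). Of all transcripts tested, 14.2% were higher and 7.52% lower at that unadjusted p. Among those higher, Usp17lc and Usp50 were tested only through their cKO libraries. Without Usp17lc the log2 fold changes ran from -1.03 to 0.72, the highest being that of Usp50, and 33 lay within 0.5 of 0. The 7 tested deubiquitinases known for acting on histones each had overlapping oocytes. Usp16, which removes ubiquitin from histone H2A and whose transcript overlaps one on the opposite strand with a mean of 216 RPM, had 121, 107, 101 and 91.3 RPM in cKO and 135, 119 and 130 RPM in WT (log2 fold change -0.29, SE 0.19, limma adjusted p = 0.441). Usp21, another H2A deubiquitinase, had 11.3, 10.5, 8.62 and 9.20 RPM in cKO and 14.6, 9.10 and 14.3 RPM in WT (log2 fold change -0.31, SE 0.26, limma adjusted p = 0.554). Usp27x, which like Usp22 can form a histone H2B deubiquitinase module, had 5.64, 3.71, 6.70 and 7.11 RPM in cKO and 6.80, 10.6 and 9.45 RPM in WT (log2 fold change -0.56, SE 0.29, limma adjusted p = 0.301). Usp7, which stabilises MDM2 and p53 and also binds chromatin regulators, was even, with 191 to 220 RPM in cKO and 195 to 214 RPM in WT (log2 fold change 0.04, SE 0.18, limma adjusted p = 0.942).

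A mixed group of deubiquitinases of endosomes, signalling and the cytoskeleton, which also holds Usp1 and Usp11 of DNA repair, gave 0 calls among 10 tested, with 1 lower, Usp11, at an unadjusted p under 0.05 and 0 with voom. Usp15, which acts in TGF-beta signalling, had 271, 338, 266 and 214 RPM in cKO and 317, 308 and 253 RPM in WT (log2 fold change -0.12, SE 0.22, limma adjusted p = 0.818). Usp9x, an X-linked protease of endocytic and polarity proteins, had 228, 312, 224 and 206 RPM in cKO and 318, 379 and 201 RPM in WT (log2 fold change -0.27, SE 0.26, limma adjusted p = 0.612). Usp46 had 219, 267, 226 and 181 RPM in cKO and 313, 341 and 219 RPM in WT (log2 fold change -0.37, SE 0.23, limma adjusted p = 0.403). In all 3 genes WT replicate 3 was the lowest WT oocyte and overlapped with or lay below the cKO oocytes. Usp1, which deubiquitinates PCNA and FANCD2, went the other way without overlap, with 43.5, 50.6, 45.2 and 55.6 RPM in cKO and 33.7, 43.3 and 36.3 RPM in WT (log2 fold change 0.36, SE 0.21, limma adjusted p = 0.354).

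A further 3 USP genes had oocytes that did not overlap at a mean of at least 8 RPM. Usp32 had 18.3, 22.2, 26.7 and 16.9 RPM in cKO and 15.2, 13.8 and 12.0 RPM in WT (log2 fold change 0.57, SE 0.24, limma adjusted p = 0.198). Usp33, a protease of centrosomes and receptor recycling, had 29.6, 32.3, 22.4 and 21.3 RPM in cKO and 21.0, 20.5 and 15.5 RPM in WT (log2 fold change 0.44, SE 0.24, limma adjusted p = 0.325). Usp30, the mitochondrial outer membrane protease that opposes Parkin, was the only one with cKO below WT. It had 32.5, 36.1, 32.9 and 33.4 RPM in cKO and 43.5, 47.9 and 41.4 RPM in WT (log2 fold change -0.38, SE 0.19, limma adjusted p = 0.290), read from a transcript that matches 0.394 of the annotated span.

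The largest negative log2 fold changes among the USP genes stood at low levels, and their genotypes overlapped. These genes were named after their values were seen. Usp13, a relative of the ubiquitin recycling enzyme USP5, had 0.099, 2.72, 1.92 and 1.05 RPM in cKO and 5.83, 2.08 and 3.46 RPM in WT (log2 fold change -1.03, SE 0.44, limma adjusted p = 0.203). Usp35 had 0.693, 0.906, 1.48 and 0 RPM in cKO and 4.29, 2.78 and 0.842 RPM in WT (log2 fold change -0.98, SE 0.42, limma adjusted p = 0.205). Usp11, a protease of DNA repair, had 5.94, 7.82, 7.75 and 3.38 RPM in cKO and 16.1, 10.7 and 7.48 RPM in WT (log2 fold change -0.78, SE 0.34, limma adjusted p = 0.219). In Usp50 the cKO oocytes, with 1.24 to 2.08 RPM, were above the WT oocytes, with 0.243 to 1.16 RPM, which is at most 15 reads (log2 fold change 0.72, SE 0.29, limma adjusted p = 0.182), in a transcript that matches 0.259 of the annotated span. Usp50 reached 1 RPM in every cKO oocyte but among the WT oocytes in replicate 2 alone. It was thus tested only because of the genotype in which it was high, and its fit is not read as a result.

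On chromosome 7, 3 genes of the Usp17-like family had reads in cKO oocytes and none in WT oocytes. This family is known as a set of cytokine-inducible and tissue-restricted deubiquitinases. Usp17lc had 17, 131, 16 and 6 reads in cKO replicates 1 to 4, or 1.68, 10.8, 1.39 and 0.699 RPM, and 0 reads in each WT library. Against a floor of 3 reads per WT library, 0.252 RPM on average, the cKO mean of 3.64 RPM was at least 14.5-fold higher, and at least 5.0-fold higher without cKO replicate 2. Usp17lc reached the minimum of 1 RPM in 3 libraries through cKO replicates 1 to 3 alone, so that it was among the tested transcripts only because of the genotype in which it was high, and its fit is not read as a result.

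The other genes of this family were too low to be tested. Usp17le had 15, 8, 20 and 5 reads in cKO and 0 in WT (at least 4.44-fold higher). Usp17ld had 3, 29, 7 and 0 reads in cKO and 0 in WT (at least 3.27-fold higher, and at least 1.20-fold higher without cKO replicate 2). The printed windows of Usp17lc and Usp17ld are alike, no window of Usp17le was compared, and hits of low mapping quality were removed before counting. The division of reads between genes of this family is therefore uncertain, and reads that fit several of them may be missing. All 3 genes were chosen for description after their values were seen.

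Summed over the classes, the members' reads differed between oocytes as follows, as a description. All 83 members together made up 5282 to 6115 RPM in the cKO libraries and 4849 to 5632 RPM in the WT libraries. The E2 genes summed to 2519 to 3110 RPM in cKO and 2371 to 2744 RPM in WT, and the USP genes to 1693 to 2217 RPM in cKO and 1803 to 2258 RPM in WT, with overlap in both classes. The sums did not overlap for the UCH genes, with 271 to 425 RPM in cKO and 196 to 256 RPM in WT, most of it from Uchl3. They did not overlap for the OTU genes either, with 481 to 646 RPM in cKO and 419 to 434 RPM in WT, most of it from Otub1. The UCH sum holds the noncoding Uchl1os and leaves out Uchl1, which is no member. Uchl1 alone had means of 1189 RPM in cKO and 1220 RPM in WT, so that the UCH sum does not describe all UCH genes of the oocyte.

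What the symbol rule missed could be read in part from the spans of the annotation. Of 25 further protein-coding genes of these families 17 had a transcript on their strand that matched their span, listed in the table under another gene, and none of them passed (2 higher and 1 lower at an unadjusted p under 0.05, voom 0). Ube2d3, the abundant UBE2D enzyme, had 1861 to 2502 RPM in cKO and 2067 to 2333 RPM in WT (log2 fold change 0.01, SE 0.22, limma adjusted p = 0.984). At 473 RPM per kb in WT oocytes it was one of the highest genes of the families, together with Uchl1 at 1037 RPM per kb. Ube2a, an E2 of DNA damage tolerance and histone H2B ubiquitination, had means of 197 and 159 RPM (log2 fold change 0.22, SE 0.48, limma adjusted p = 0.850). Usp14, a protease of the proteasome, had means of 74.1 and 64.0 RPM (log2 fold change 0.21, SE 0.44, limma adjusted p = 0.839). The Usp14 transcript overlaps one on the opposite strand with a mean of 116 RPM, whose reads cannot be told apart where the strand was not used. Usp2 was the only one of the 17 with all cKO oocytes below WT, at 72.6 to 109 RPM against 117 to 136 RPM (log2 fold change -0.51, SE 0.22, limma adjusted p = 0.206), and Ube2v1 the only one with all above. A transcript of Ube2b was not matched and is not analysed here.

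Across the 70 members tested whose transcript matched the annotated span, the log2 fold change had a Spearman's rho of -0.161 with exon length and of 0.044 with the mean level, as descriptions of genes measured in the same oocytes. Of the 77 members tested 59 overlapped no other transcript of the table, Ube2e2 and Ube2f among them, and for the other 18 reads of a neighbour cannot be told apart where the strand was not used.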

How the data were processed

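GV oocyte RNA was amplified by the authors with a SMARTer Ultra Low kit, 1 oocyte per library, and sequenced as single reads. Per the methods, reads were trimmed with trim galore and mapped with Hisat to GRCm38, hits with a mapping quality under 20 were removed, and reads were counted in SeqMonk over oocyte transcripts with isoforms merged. The submitters' processing notes also name bcl2fastq 1.8.4 and featureCounts 1.4.4, without a role. Use of the strand in counting is not given in the sources used here.

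The deposited table is in log2 RPM. The authors divided by the mapped reads of each library and set transcripts without a read to 0.9 read. Taken back from log2, 100% of the values over this minimum were whole reads within 0.1 read. The rest was computed here. Values were taken to log2(RPM + 1), transcripts reaching 1 RPM in 3 or more libraries were kept, and the genotypes were compared with limma 3.58.1 (lmFit and eBayes with trend, two-sided, without covariates) under R 4.3.3, after a test on simulated data. The fold change understates the change of low transcripts. The study's own test was a model for counts. Since the deposited unit is log2 it was not the main test here, its threshold was kept, and voom was run on the recovered reads as an alternative. Other steps used Python 3.11.15, numpy 2.4.6, pandas 2.3.3, scipy 1.17.1 and biopython 1.88. Genes outside the rule were matched by GENCODE M21 spans on GRCm38 with an overlap of at least 0.5 of the union.

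Groups and replicate numbers came from the labels. Named genes were the members past the threshold, the 6 largest uncalled differences with a mean of at least 8 RPM and without overlap, the 6 highest members, and genes fixed for their roles; others are named after their values were seen. Of the genes fixed for their roles, 1 is not reported here by name. The members, the role and pathway lists and the markers were chosen with earlier results of these data known. Alternatives were pseudocounts of 0.1 and 5 RPM, the deposited scale, other filters, 4 other scalings, other variance models, quality weights, voom, a replicate block and libraries left out. No sample was left out of the fit. The share of reads outside transcripts was compared by an exact permutation test on the absolute difference of means; the p was first computed by doubling one tail, and this form was chosen after that value was seen, so both are given.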

Additional observations from a re-analysis of the deposited data

Results flagged for a closer look

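In 3 of 53 values examined, 1 cKO oocyte stood apart from the other 3 by a gap that took more of the whole range than Dixon's critical value for 4 samples allows, where chance gives about 1 in 20, or 3. Usp17lc was highest in cKO replicate 2 at 10.8 RPM, against 0.699 to 1.68 RPM in the others (gap 0.903 of the range). Ube2e3 was lowest in cKO replicate 4 at 28.8 RPM, against 38.0 to 39.8 RPM (0.842). Uchl5 was highest in cKO replicate 3 at 50.7 RPM, against 31.5 to 34.6 RPM (0.837).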

How the results depend on the processing

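The number of higher members, 3 in the fit as reported, was 1 with centring on the median gene or median-of-ratios scaling, 2 with a pseudocount of 5 RPM, no filter, quantile normalisation or voom, and 4 with a pseudocount of 0.1 RPM, the deposited scale or quality weights, where Usp17lc was among the 4. With each library left out it ran from 1 to 3. The 3 came without cKO replicate 4, with Usp17lc, tested only through its cKO libraries, among them. The number of lower members was 0 in every alternative. For all transcripts, 683 higher and 355 lower as reported, the counts were 315 higher with a pseudocount of 5 RPM, 428 higher with quantile normalisation, 443 higher with voom, 174 higher and 129 lower without a filter, and 1197 higher and 554 lower with quality weights. With each library left out they ran from 172 to 857 higher and from 117 to 435 lower, the lowest without WT replicate 2. Higher calls were 65.8% of all calls as reported, 46.3% with centring (458 higher, 531 lower), 49.2% with quantile normalisation and 52.2% with median-of-ratios scaling. The cause of these changes was not tested.

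Of 50 named genes 37 kept their direction in every alternative run, Ube2e2, Ube2f and Uchl1os among them, and 13 did not, none of them past the threshold. Ube2t gave 0.12 with quantile normalisation, 0.073 when scaled by reads within transcripts, 0.025 with quality weights and 0.060 without cKO replicate 4 and WT replicate 3. Ube2s gave -0.11 with centring, -0.044 with quantile normalisation, -0.081 with median-of-ratios scaling, -0.019 with quality weights, -0.0055 with the replicate block and -0.053 without both libraries. Usp7 gave -0.12, -0.096 and -0.00035 with centring, median-of-ratios scaling and both libraries left out, and Ube2d3 -0.14 and -0.12 with the first and second of these. Uchl1 gave 0.16 with quantile normalisation and 0.039 scaled by reads within transcripts, and Otud4 0.039 with the latter. With each library left out, Ube2t ran from -0.10 to 0.15, Ube2w from -0.062 to 0.37, Ube2h from -0.88 to 0.20, Ube2c from -0.18 to 0.72, Ube2s from -0.052 to 0.14, Ube2a from -0.17 to 0.68, Ube2d3 from -0.044 to 0.099, Usp14 from -0.24 to 0.58, Usp22 from -1.26 to 0.26, Otud4 from -0.15 to 0.085 and Ube2q2 from -0.13 to 0.75. Usp17lc, Usp13, Usp35 and Usp50 have no value with a mean of at least 4 RPM required.

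Replicate numbers are shared by the genotypes but do not pair the oocytes: deviations of same-numbered libraries correlated at 0.192, 0.295 and -0.129, and those of cKO replicate 4 and WT replicate 3 at 0.608. With the replicate block, in which cKO replicate 4 has a number of its own and so adds nothing, 4 members were higher (the addition again being Usp17lc, tested only through its cKO libraries) and 0 lower, and 924 transcripts were higher and 479 lower. Ube2h was 0.20 and Usp22 0.26 in that fit. At these depths members under about 1 RPM rest on some 10 reads, and no difference in them was detectable below the stated floors.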

Other observations

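Of 73 genes of ubiquitin, E1, other E2, other deubiquitinase, SUMO protease and anaphase-promoting complex lists that were found among the transcripts, 68 were tested, and none passed in either direction (5 higher and 3 lower at an unadjusted p under 0.05, where 14.2% of all transcripts tested were higher and 7.52% lower; voom 1 higher, Cyld). The 11 tested ubiquitin genes and E1 enzymes lay within 0.5 of 0 on the log2 scale, among them Ubb, a polyubiquitin gene, with means of 8776 and 9813 RPM. The 4 genes with the lowest adjusted p were the following, chosen after their values were seen. Ufc1, the E2 of the ubiquitin-like protein UFM1, had 80.9, 70.0, 84.6 and 109 RPM in cKO and 38.8, 53.3 and 38.0 RPM in WT (log2 fold change 0.97, SE 0.23, limma adjusted p = 0.0334), under the 2-fold limit, and passed in 2 of 22 alternatives, among them the fit without cKO replicate 2 (1.06, limma adjusted p = 0.0406). Cyld, which removes lysine-63 and linear chains in NF-kappa-B signalling, had 18.1, 18.6, 16.2 and 14.6 RPM in cKO and 7.45, 8.94 and 8.42 RPM in WT (log2 fold change 0.94, SE 0.23, limma adjusted p = 0.0374), likewise under it, and passed in 7 of 22, among them the fit without cKO replicate 4 (1.01, limma adjusted p = 0.0293). Mindy4, of the MINDY class, had 34.7, 30.4, 25.6 and 64.6 RPM in cKO and 74.99, 65.6 and 101 RPM in WT (log2 fold change -1.10, SE 0.31, limma adjusted p = 0.0664), and passed in 4 of 22, among them the fit without cKO replicate 4, its highest cKO oocyte (-1.37, limma adjusted p = 0.00586). Cdc16, a subunit of the anaphase-promoting complex, had 12.6, 12.0, 15.2 and 12.1 RPM in cKO and 6.48, 8.33 and 6.64 RPM in WT (log2 fold change 0.78, SE 0.24, limma adjusted p = 0.0832).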
